A study of Mus musculus with 12 samples.

Results

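Wild-type (WT) and Alkbh5-/- (KO) mouse oocytes were compared at germinal vesicle breakdown (GVBD), the first visible step of meiotic resumption, in the 4 libraries labelled GVBD out of 12 in the series, 2 per genotype. The question was which mRNAs differ between the genotypes at this step, when libraries are scaled to an added RNA standard and when they are scaled to one another. Genes near 0 in 1 genotype, meaning at or under 10 counts in both of its libraries, were set aside. The KO mice are total knockouts on a C57BL/6 background in which CRISPR-Cas9 ablated exon 1 of Alkbh5, so the surrounding ovarian cells lack the gene too. By the study's methods, GV oocytes of 3-week-old PMSG-primed females were released from milrinone arrest and cultured in M16 medium, and the GVBD samples were small pools taken after 4 h. The study reports that most KO oocytes did not undergo GVBD and does not say whether pools were made up by stage, so a difference between genotypes and a difference in stage cannot be told apart here. The study describes the pools as biological replicates. Nothing in the labels names separate mice for them, and p-values measure the spread between these pools, which may be technical.

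A mammalian oocyte waits in prophase of meiosis I with high cAMP and an inactive complex of CDK1 and cyclin B. When cAMP falls, CDC25 phosphatases activate CDK1, the nuclear envelope is taken apart, chromosomes condense and a spindle without centrosomes forms. Transcription is silent at this time, so mRNA levels follow from storage, polyadenylation, translation and decay of maternal transcripts. ALKBH5 removes N6-methyladenosine (m6A), a mark that reader proteins use to set the stability, splicing and export of mRNA.

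Total counts of the 4 libraries lay between 29.97 and 36.48, in units of 1e6. Counts are not molecules, because the cDNA was amplified by PCR without molecular identifiers. For each count on the ERCC spike-in standard, the WT libraries held 112 and 75.3 counts on mouse genes and the KO libraries 121 and 98.5, so the genotypes overlapped in this measure of RNA per standard. Alkbh5 (chromosome 11, 60536381 to 60558512, GRCm38) had 10181 and 5434 counts in WT and 54 and 113 in KO, a log2 fold change of −6.43 ± 0.70 (± is the standard error throughout), as the labels call for. All 15 oocyte markers were tested, none differed by the test and none was at 0 in any library. Genes that mark other cells differed between the genotypes at GVBD. The 4 globin genes together made up 3131 and 2847 CPM (counts scaled to a library total of 1e6) in WT against 4.17 and 7.34 CPM in KO. The KO GV libraries held 2983 and 5186 CPM and the WT GV libraries 12.3 and 5409 CPM, so the WT GVBD level was not unusual in the series, and at MII all 4 libraries lay between 1.07 and 898 CPM. Each gene group below is given beside that difference. The source of this RNA was not tested, and fewer cells of a type and less RNA per cell cannot be told apart in these pools.

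With spike-in scaling, 494 of 19462 genes tested differed between the genotypes (2.54%; at least 2-fold, adjusted p under 0.05). Of these, 193 were near 0 in 1 genotype, 157 of them in KO. The remaining 301 genes (1.67% of 18053 tested genes not near 0) are the subject here. They were 121 genes higher in KO (0.67%) and 180 genes lower in KO (0.997%). The median gene tested was shifted by 0.23 (log2) toward KO, and the smallest shift that passed was 1.94 among the higher and 2.07 in size among the lower genes. With TMM scaling, which puts the bulk of genes near 0 (median −0.04), 16 of the 301 still passed (0.0886% of the same genes), 2 higher (0.0111%) and 14 lower (0.0775%), and no other gene not near 0 did. The medians of the higher and lower genes were 2.41 and −3.45 under TMM. Scaled counts of KO and WT did not overlap for 117 of the 121 and for 180 of the 180 under spike-in scaling, where 31.0% of the genes not near 0 lay wholly above WT and 14.2% wholly below. The plot of fold change against mean count shows both sets.

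**Figure D1:**
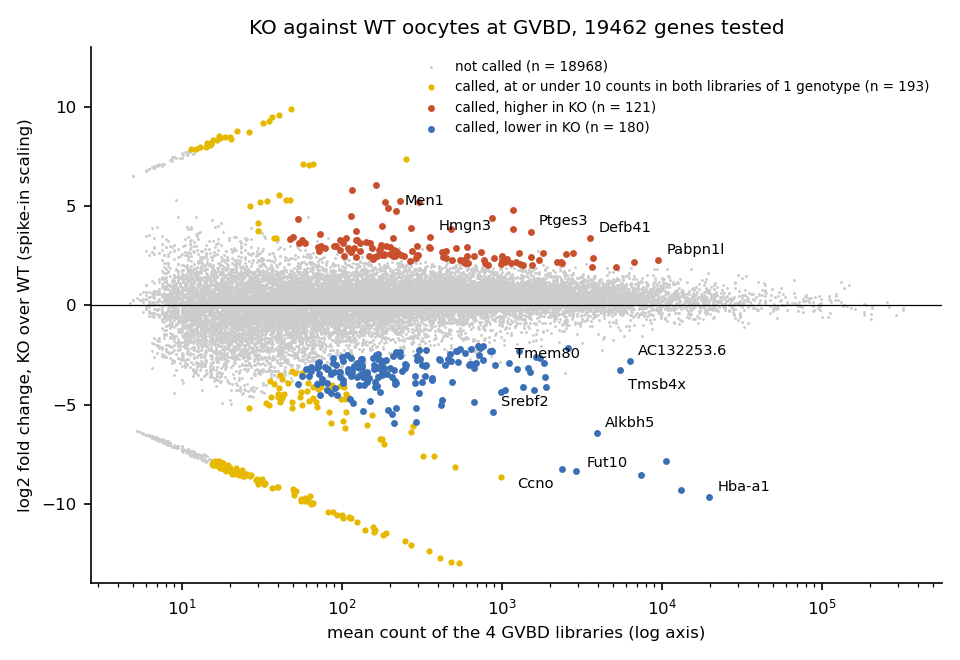
Log2 fold change of KO over WT at GVBD (spike-in scaling) against the mean count of the 4 libraries on a log axis, 1 point per tested gene. Of the 494 genes past the threshold, 121 lie above 0 and 180 below 0 among those not near 0 in a genotype, and the globins, Fut10, Ccno and Alkbh5 lie lowest among abundant genes not near 0.

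A fit that leaves out 1 library takes its spread from the genotype that keeps 2. It cannot show which libraries carry the differences. The count of 301 changed with the library left out. Without WT replicate 1 it was 4 and without WT replicate 2 it was 7, against 297 and 548 without KO replicate 1 or 2. The genes changed as well. Of the 301, 107 were among the 297 called without KO replicate 1, where 66 were higher, and 211 were among the 548 called without KO replicate 2. Both WT libraries carried the globin RNA, and its part in these counts was not tested. At the edge of the set, Eif2ak2 stayed in with 12 and 10 counts in KO, while Slc39a7, with 10 and 9, was set aside. On the side of the p-value, Lcp2 was the nearest gene inside and Iscu (log2 fold change 2.10) the nearest outside, with adjusted p of 0.0494 and 0.0501.

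Of the genes higher in KO, 12 are given by a rule that took the largest shifts among called genes of at least median abundance that have a gene name and no overlap between the genotypes under either scaling. Larger shifts, up to 6.06, were seen in genes outside these limits. Hmgn3, a nucleosome-binding protein of the HMGN family, had 76 and 66 counts in WT and 615 and 677 in KO (3.46 ± 0.63, adjusted p = 0.00371). Ptges3, the p23 co-chaperone of HSP90, had 332 and 150 counts in WT and 2508 and 3093 in KO (3.71 ± 0.63, adjusted p = 0.00198). Men1, which encodes menin, a scaffold of histone methyltransferase complexes, had 3 and 40 counts in WT and 300 and 537 in KO (4.72 ± 0.80, adjusted p = 0.00189). In each of the 3, both KO libraries lay well above both WT libraries. Orai1, the pore of store-operated calcium entry at the plasma membrane, had 10 and 48 counts in WT and 326 and 333 in KO (3.98 ± 0.70, adjusted p = 0.00274). Rela, the p65 subunit of NF-kB, had 22 and 76 counts against 263 and 343 (3.05 ± 0.65, adjusted p = 0.0121). Defb41, a beta-defensin, went from 817 and 630 counts to 5702 and 7132 (3.38 ± 0.57, adjusted p = 0.00189), the highest counts among these 12 genes. Its annotated span shares sequence with another gene model on the same strand. Armc3, an armadillo-repeat protein, had 46 and 40 counts in WT and 314 and 443 in KO, and Spsb4, a SOCS-box adaptor of a ubiquitin ligase, had 44 and 27 against 269 and 264, with shifts of 3.37 ± 0.64 and 3.15 ± 0.67.

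For the other 4 of the 12, 1 KO library carried most of the shift. Spsb3 had 17 and 5 counts in WT, 27 in KO replicate 1 and 881 in KO replicate 2. A gene model listed as Myl12b, a myosin light chain, had 28 and 0 counts in WT and 42 and 1141 in KO. It overlaps Myl12a and another gene model named Myl12b on the same strand, so these may not be all counts of that gene. Kctd3 had 64 and 99 against 120 and 3183. Mapk1ip1 was high in the other library, at 3582 and 683 counts in KO against 184 and 244 in WT. In 10 of the 121 higher genes and 16 of the 180 lower ones, the replicates of the genotype with more RNA differed by over 4-fold.

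**Figure D2:**
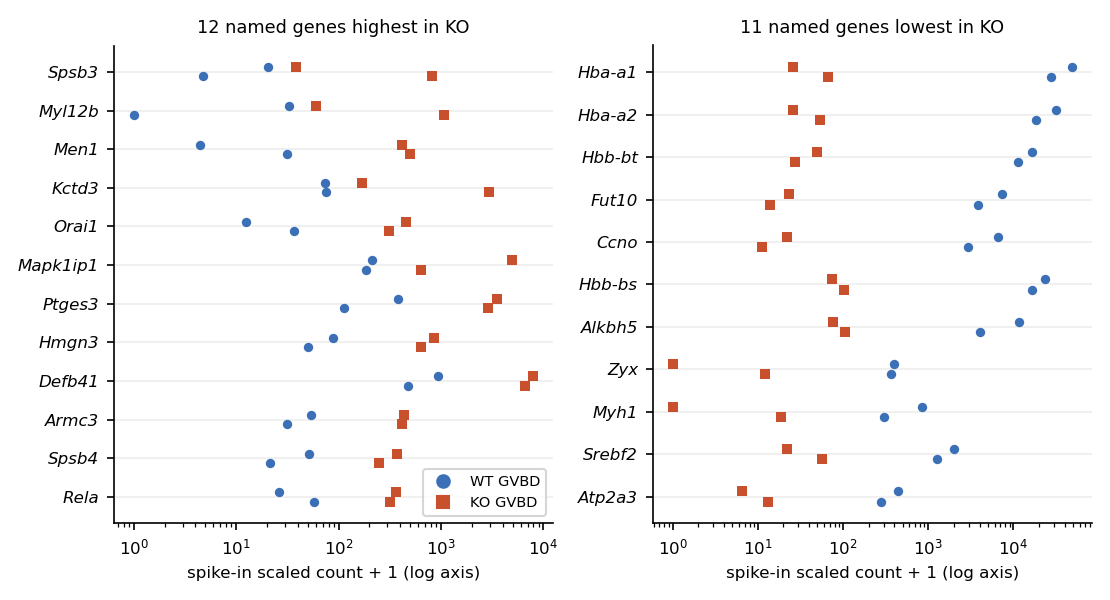
Spike-in scaled count plus 1 (log axis) of the 12 genes highest and the 11 lowest in KO at GVBD by the rule on abundance, name and overlap, 1 point per library. KO and WT points do not overlap for any of the 23, as the rule that chose them required, and the KO points of Spsb3, Myl12b, Kctd3 and Mapk1ip1 lie far apart.

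The machinery that resumes meiosis gave few calls. For this and every list that follows, the share of all genes called was 0.67% higher and 0.997% lower. In the list of CDK1, cyclin B and CDC25 regulators, 1 of 28 tested members was higher, Cdc25a, a phosphatase that activates cyclin-dependent kinases. It had 211 and 304 counts in WT and 1154 and 673 in KO (2.26 ± 0.59, adjusted p = 0.0445), and 1.89 with TMM scaling (adjusted p = 0.156). Ccnb1 and Cdk1, given for their role, were at 31275 and 48212 counts in WT against 32008 and 32908 in KO, and at 4012 and 4610 against 3721 and 4052. Their log2 differences were 0.07 ± 0.49 and 0.16 ± 0.51, and −0.27 and −0.13 with TMM scaling, so their sign depends on the scaling. The median of the list was 0.55 (0.29 with TMM).

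No member was called among 16 genes of cAMP signalling, 9 of the MOS and MAPK cascade, 31 of the spindle checkpoint and anaphase-promoting complex, 37 of the kinetochore and passenger complex, 71 of the nuclear envelope and pore, and 32 of cohesin, condensin and chromosome structure. Their medians were 0.84, 0.61, 0.49, 0.53, 0.30 and 0.24 with spike-in scaling and 0.55, 0.36, 0.15, 0.27, 0.05 and 0.00 with TMM, beside 0.23 and −0.04 over all tested genes. On simulated counts of this design the test recovered 0% of 2-fold and 52% of 4-fold changes, and called 11 genes that had been left unchanged. The members closest to the threshold were Cdc20, the activator of the anaphase-promoting complex (969 and 955 counts in WT, 2469 and 2423 in KO; 1.65 ± 0.53, adjusted p = 0.109), and Mapk3 (1200 and 2172 in WT, 3786 and 3970 in KO; 1.58 ± 0.52, adjusted p = 0.117). Mos, the kinase that starts the MAPK cascade in oocytes, had 2301 and 5140 counts in WT and 6894 and 7113 in KO (1.33 ± 0.52, adjusted p = 0.203). Spc24, a subunit of the NDC80 complex, had 212 and 250 counts against 527 and 668 (1.66 ± 0.57, adjusted p = 0.133). All 4 were above WT in both KO libraries without passing the test, as were many other genes. Under spike-in scaling 31.0% of all tested genes not near 0 lay wholly above WT.

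Of 69 spindle and tubulin genes, Tubg2, a gamma-tubulin, was higher, at 415 and 471 counts in WT and 1191 and 1920 in KO (2.07 ± 0.53, adjusted p = 0.0417). Of 64 listed actin and cortex genes, Tpm4, a tropomyosin, was lower, at 452 and 785 counts in WT against 22 and 65 (−3.58 ± 0.64, adjusted p = 0.00326), and 1 more was near 0 in KO. The list does not hold all genes of actin. Tagln2 and Tmsb4x, actin-binding genes described below, were also lower and are outside it. The actin list had the lowest median of the lists above, 0.08 (−0.19 with TMM), with 35 of its 64 members above 0 under spike-in scaling and 19 under TMM.

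**Figure D3:**
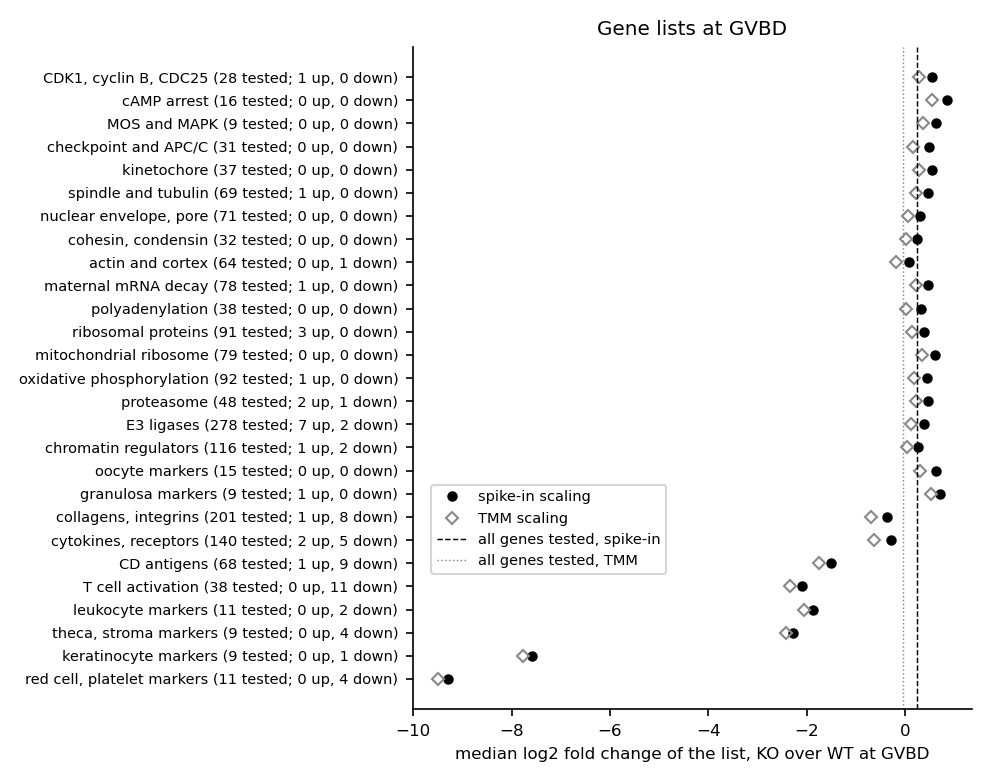
Median log2 fold change (KO over WT at GVBD) of each gene list under spike-in scaling (filled circles) and TMM scaling (open diamonds), with the medians of all tested genes as lines, 0.23 and −0.04. Beside each name stand the members tested and those called higher (up) or lower (down) and not near 0, and the lists of blood, skin, stroma and immune cells lie to the left of the oocyte lists.

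The lists of RNA decay, m6A, polyadenylation and splicing gave 3 calls, 2 higher and 1 lower. Pabpn1l, an oocyte poly(A)-binding protein known for a part in maternal mRNA decay, was the only member called of the decay list (78 tested). It had 3050 and 5143 counts in WT and 15464 and 14345 in KO (2.25 ± 0.53, adjusted p = 0.0233). Among 24 genes of m6A writing, erasing and reading, Alkbh5 was the only one called. None of 38 polyadenylation and translational control genes passed, and Cpsf4l, Pum2 and Cpsf4 came closest at 1.31 ± 0.51, 1.34 ± 0.53 and 1.21 ± 0.63 (adjusted p of 0.201, 0.217 and 0.386). In the splicing list (104 tested), Prpf39, a factor of the U1 small nuclear ribonucleoprotein, was higher at 429 and 354 counts in WT and 1464 and 2873 in KO (2.65 ± 0.56, adjusted p = 0.0116).

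In translation and energy metabolism the calls were few and mostly upward. Of 91 genes in the list of cytosolic ribosomal proteins, 3 were higher, 1 of them (Rps4l) annotated as a transcribed processed pseudogene. Rpl7a had 339 and 340 counts in WT and 1258 and 1637 in KO (2.36 ± 0.55), Rps4l had 37 and 58 against 182 and 216 (2.41 ± 0.63), and Rpl41 had 2851 and 2365 against 4955 and 16591 (2.16 ± 0.56), the last resting largely on 1 library. Ribosomal protein genes have many processed copies, and how the authors' counting split shared reads is not known. None of 79 mitochondrial ribosomal protein genes passed. Their median was 0.60 (0.33 with TMM), with 66 members above 0, and Mrps27, Mrps7 and Mrpl12 came closest at 1.91, 1.85 and 1.85 (adjusted p of 0.0574, 0.062 and 0.062). Of 92 genes of oxidative phosphorylation, Cox4i2, a cytochrome c oxidase subunit, was higher at 48 and 83 counts in WT against 271 and 316 (2.52 ± 0.61, adjusted p = 0.0268). Eif2ak2, the double-stranded RNA-activated kinase PKR, was the only call among 66 translation factors, at 155 and 234 counts in WT against 12 and 10 (−3.76 ± 0.72, adjusted p = 0.00597).

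Of 48 proteasome genes, Psmb5, a catalytic subunit, was higher at 1077 and 995 counts in WT against 3627 and 3782 (2.12 ± 0.54, adjusted p = 0.0377), and so was the assembly chaperone Psmg3 at 99 and 109 against 371 and 630 (2.51 ± 0.60, adjusted p = 0.0254). Psmb8, a subunit of the immunoproteasome of immune and interferon-treated cells, was lower at 637 and 179 against 8 and 47 (−3.93 ± 0.82, adjusted p = 0.0107). Of 278 E3 ligase and adaptor genes, 7 were higher and 2 lower, beside 0.67% and 0.997% over all genes. The higher ones were Kctd3, Spsb3, Spsb4, Trim6, March11, Fbxl6 and Mdm2, the last a ligase of p53, and the lower ones were Trim35 (240 and 251 counts against 17 and 6; −4.01 ± 0.76) and Trim10 (165 and 243 against 17 and 13; −3.38 ± 0.70), a TRIM protein of red cell precursors. Trim35 overlaps 1700001G11Rik, also in the lower set, on the other strand. Whether the counting used strand is not stated, so these may not be all counts of Trim35. The median of the ligase list was 0.37 (0.11 with TMM), so the calls stand in a list whose bulk lay near the rest. Of 111 conjugating enzymes and deubiquitinases, Usp11 was higher at 466 and 869 counts against 1976 and 2128 (2.00 ± 0.53, adjusted p = 0.0461).

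Of 116 listed chromatin regulators, Hmgn3 was higher and 2 were lower. Men1 and Dpf3, genes of chromatin complexes given elsewhere in the text and outside this list, were also higher. Hmgn5, another HMGN protein, had 905 and 1600 counts in WT and 108 and 258 in KO (−2.51 ± 0.57, adjusted p = 0.019), so these HMGN genes moved in opposite directions. Kdm2a, a demethylase of histone H3 lysine 36, had 1859 and 2522 counts against 275 and 451 (−2.32 ± 0.53, adjusted p = 0.0212). Of 36 histone genes tested, Hist1h1c was lower (−3.15 ± 0.72). None was called of 21 genes of the subcortical maternal complex and NLRP family, 18 of the egg coat, 42 oocyte and pluripotency transcription factors, 18 of DNA methylation, 79 of DNA repair, 80 listed chaperones and 60 of pyruvate, lactate and citrate metabolism. The co-chaperone Ptges3, higher in KO as given above, is outside the chaperone list. Of 235 solute carriers, 4 were higher and 1 lower, beside 3 near 0. Slc38a1, a glutamine and neutral amino acid transporter, had 163 and 111 counts against 803 and 633 (2.67 ± 0.63, adjusted p = 0.0234), and Slc2a3, a glucose transporter, was the lower one at 356 and 201 against 24 and 12 (−3.65 ± 0.75, adjusted p = 0.00927).

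Of the 180 lower genes, 148 are on none of the lists of markers of other cell types, T cell activation, CD antigens, antigen receptor segments and keratins. Their median level was 10.5 and 10.9 CPM in the WT GVBD libraries and 0.61 and 1.18 CPM in KO. Fut10, of the fucosyltransferase family, had 6496 and 5152 counts in WT and 16 and 14 in KO (−8.33 ± 0.75, adjusted p = 9.53e-07). Ccno, which encodes cyclin O, had 5737 and 3850 counts against 15 and 11 (−8.26 ± 0.77, adjusted p = 1.48e-06). Srebf2, the transcription factor of sterol synthesis and uptake, had 1769 and 1674 counts against 15 and 60 (−5.38 ± 0.68, adjusted p = 7.41e-05). Zyx, a focal adhesion protein, had 351 and 486 counts against 0 and 12, and Atp2a3, a calcium pump of the endoplasmic reticulum, 391 and 371 against 4 and 13. These are differences between abundant and nearly absent transcripts in both pairs of libraries. Ccno and Srebf2 were also near absent in single libraries elsewhere: Ccno had 3519 and 2 counts in the WT GV libraries and 10 and 2375 in the KO MII libraries, and Srebf2 had 28 and 2047 in the WT GV libraries and 58 and 4336 in the WT MII libraries. Fut10 was different in this respect. It had 17 and 26 counts in WT at GV and 35 and 6 in KO, then 11012 and 10132 in WT at MII against 48 and 27 in KO, so it was high in all 4 later WT libraries and low in all 6 KO libraries. Chosen after its values were seen, Psat1, of serine synthesis, had 309 and 242 against 22 and 58 (−2.64 ± 0.65, adjusted p = 0.0319).

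Those lists of other cell types and immune genes held 32 of the 180 lower genes and 6 of the 121 higher genes. All 11 red cell and platelet markers were lower in KO (median −9.30), 4 of them not near 0 and 7 near 0. Hba-a1 had 42818 and 36348 counts in WT and 18 and 71 in KO (−9.67 ± 0.79, adjusted p = 5.25e-07), and Hba-a2, Hbb-bt and Hbb-bs were lower by −9.30 ± 0.76, −8.55 ± 0.73 and −7.83 ± 0.68. The alpha-globin genes are near-identical copies, as are the beta-globin genes, so their split is uncertain. Of 9 keratinocyte markers, 5 were lower, Sfn at 204 and 153 counts against 9 and 22 (−3.36 ± 0.72) and 4 near 0 in KO, and the list summed to 116 and 95.2 CPM in the WT GVBD libraries and to between 23.6 and 45.4 CPM in the other 10. Of 9 theca and stroma markers, 4 were lower: Col3a1 (454 and 1196 counts against 0 and 53; −4.78 ± 0.98), Col1a1 (194 and 987 against 0 and 46; −4.42 ± 1.0), Col1a2 (247 and 229 against 34 and 25; −2.68 ± 0.67) and Pdgfra (50 and 592 against 15 and 21; −3.63 ± 0.82). Of 12 muscle markers, Acta1, the skeletal muscle actin, was lower with 894 and 721 counts against 0 and 50 (−5.0 ± 0.98), and Myh1, a fast muscle myosin outside that list, had 738 and 404 against 0 and 19 (−5.89 ± 0.96). Of 5 endothelial markers Vwf, a clotting factor, was lower at 228 and 306 against 8 and 38 (−3.36 ± 0.70). None of the 10 liver markers was called, and their sum was 636 CPM in WT replicate 1 and 3.46 CPM in WT replicate 2. Of 9 granulosa and cumulus markers tested, none was lower and Fshr, the receptor of follicle-stimulating hormone, was higher, at 17 and 32 counts against 221 and 157 (3.38 ± 0.69, adjusted p = 0.00897).

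Of 38 tested genes of T cell activation, 11 were lower and not near 0, 2 lower and near 0, and none higher, beside 0.997% and 0.67% over all genes, with a median of −2.09 (−2.35 with TMM). The study named this theme at GVBD from the same libraries, so the list is not independent evidence of its direction. Cd3d, a chain of the T cell receptor complex, had 3810 and 2260 counts in WT and 81 and 212 in KO (−4.27 ± 0.64, adjusted p = 0.000473), and Cd3g had 772 and 611 against 22 and 73 (−3.74 ± 0.67, adjusted p = 0.00322). Tnfrsf4, the co-stimulatory receptor OX40, had 2855 and 951 counts against 51 and 126 (−4.38 ± 0.71, adjusted p = 0.00118). Ptprc, the CD45 antigen of all leukocytes, had 421 and 348 against 8 and 51 (−3.62 ± 0.72, adjusted p = 0.00821). The summed list stood at 515 and 357 CPM in the WT GVBD libraries and between 152 and 206 CPM in the other 10. For this list the GVBD pools of WT, rather than those of KO, stood apart from the rest of the series. Wider lists of immune and tissue genes leaned the same way, with 9 lower and 1 higher of 68 CD antigens (median −1.51), 5 lower and 2 higher of 140 cytokine genes (−0.29) and 8 lower and 1 higher of 201 genes of collagens, integrins and cadherins (−0.38). Among 71 immunoglobulin and T cell receptor segments tested, 4 were lower and 3 higher, with a median of −1.45 (−1.66 with TMM). Of 11 leukocyte markers, Ptprc and Lyz2 were lower and 1 more was near 0 in KO, with Lyz2, a lysozyme of macrophages, at 1049 and 814 counts against 135 and 216 (−2.21 ± 0.58). The leukocyte markers summed to 118 and 94.8 CPM in WT and 25.1 and 37.4 CPM in KO at GVBD. The GV and MII libraries held 28.3 to 102 CPM, so the pattern of the T cell list was not shared by these markers. Also in the lower set, and chosen after its values were seen, was the class I antigen H2-D1 (1777 and 1493 against 72 and 303; −3.03 ± 0.62). The part of other cells' RNA in these differences was not tested.

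**Figure D4:**
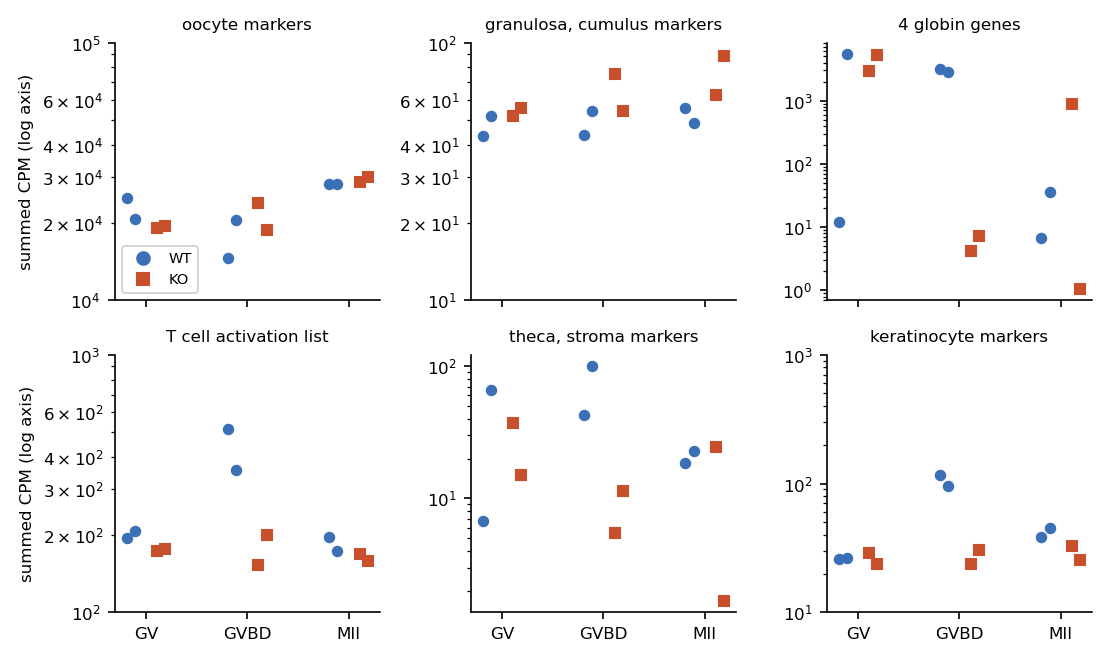
Summed CPM (log axis) of 6 gene lists in each of the 12 libraries by stage, WT as circles and KO as squares. The T cell and keratinocyte lists stand highest in the 2 WT GVBD libraries, the globins are low in both KO GVBD libraries but also in 1 WT GV library, both WT MII libraries and 1 KO MII library, and the oocyte markers stay between 14543 and 30071 CPM.

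On simulated counts the test with TMM scaling called 10 genes that had been left unchanged, with genes near 0 not set aside. The genes that passed under both scalings, and so do not turn on the amount of spike-in, were 16. The higher ones were Defb41 (3.16 with TMM, adjusted p = 0.0379) and Gm13962, at 75 and 76 counts in WT against 736 and 1052 (3.56 with TMM, adjusted p = 0.041). The lower ones included the 4 globins, Alkbh5, Fut10 and Ccno. Ctla2a, an inhibitor of cathepsin-type proteases, had 459 and 683 counts against 11 and 14, and Tagln2, an actin-binding transgelin, had 328 and 336 against 11 and 16. Tmsb4x, the actin monomer-binding thymosin beta 4, had 12188 and 7964 counts against 735 and 1103 (−3.46 with TMM, adjusted p = 0.0411). Tmem80, a transmembrane protein, had 2496 and 2844 counts against 220 and 265 (−3.45 with TMM, adjusted p = 0.028). Dleu2, a long non-coding RNA that hosts Mir15a and Mir16-1, had 1277 and 1436 counts against 156 and 173 (−3.03 with TMM, adjusted p = 0.0436), and AC132253.6, a gene known by its clone name on chromosome 19 (9864924 to 9868995), had 11552 and 11206 against 1379 and 1217 (−3.10 with TMM, adjusted p = 0.0411). Dleu2 overlaps Trim13 on the other strand, and whether the counting used strand is not stated.

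The 8 GV and MII libraries, which the GVBD comparison did not use, show which differences were there before and after meiotic resumption. Of the 121 higher genes, 118 were measured at GV and 102 of these (86.4%) lay above 0 there, beside 73.2% of all genes. At MII it was 103 of 116 (88.8%), beside 63.9%. With TMM scaling the shares were 71.2% at GV and 77.6% at MII, each beside 50.2% of all genes. In 48 of the 121 (39.7%) both KO libraries lay above both WT libraries at GV and again at MII, beside 12.4% of all tested genes not near 0. Of the lower genes, at GV 83 of 175 (47.4%) lay below 0, beside 26.8% of all genes, and at MII 120 of 173 (69.4%), beside 36.1%. With TMM scaling the shares were 61.7% at GV and 76.9% at MII, each beside 49.8% of all genes. In 36 of the 180 (20%) both KO libraries lay below both WT libraries at both other stages, beside 2.53% of all genes. Very few passed the test at another stage by themselves. At GV 1 higher gene (Dpf3) and 4 lower ones did, beside 0.0565% and 0.0411% of all genes, and at MII 8 higher ones and 5 lower ones did, beside 0.501% and 0.302% of all genes at MII. At MII 4 genes of the lower set, the globins, were higher in KO instead, through 1 KO library.

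Named by this persistence after their values were seen, Prpf39 had 306 and 389 counts in WT at GV against 1778 and 1752 in KO, and 531 and 723 against 3687 and 1485 at MII. Hmgn3 had 88 and 107 counts against 406 and 340 at GV and 147 and 137 against 587 and 1853 at MII. Slc38a1 had 135 and 154 counts against 688 and 565 at GV and 60 and 184 against 627 and 402 at MII. Dpf3, a subunit of BAF chromatin remodelling complexes, had 969 and 1054 counts in WT against 3430 and 3915 in KO at GVBD, and 917 and 786 against 3426 and 3568 at GV. In the other direction, Dleu2 had 1537 and 3036 counts against 298 and 234 at GV and 5500 and 6794 against 481 and 246 at MII. AC132253.6 had 11317 and 9943 against 1002 and 1119 at GV. Tex15, a gene of germ cell recombination and transposon silencing, had 3799 and 3135 counts against 119 and 409 at GVBD and 3812 and 3251 against 456 and 345 at GV. The GV and GVBD counts of KO and WT did not overlap for any of these 7 genes, which follows from their choice by persistence. Under spike-in scaling at GV, KO lay wholly above WT in 43.7% of all tested genes not near 0 and wholly below in 9.37%. At GV alone Dpf3 and AC132253.6 passed edgeR's quasi-likelihood test (adjusted p = 0.046 and 0.023), while Tex15, Prpf39, Slc38a1, Dleu2 and Hmgn3 did not (adjusted p = 0.060, 0.064, 0.109, 0.125 and 0.130). The log2 difference at GV and at GVBD was 2.59 and 2.65 for Prpf39, 2.39 and 2.67 for Slc38a1, −2.86 and −2.74 for Dleu2, and farthest apart for Hmgn3, at 2.20 and 3.46.

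**Figure D5:**
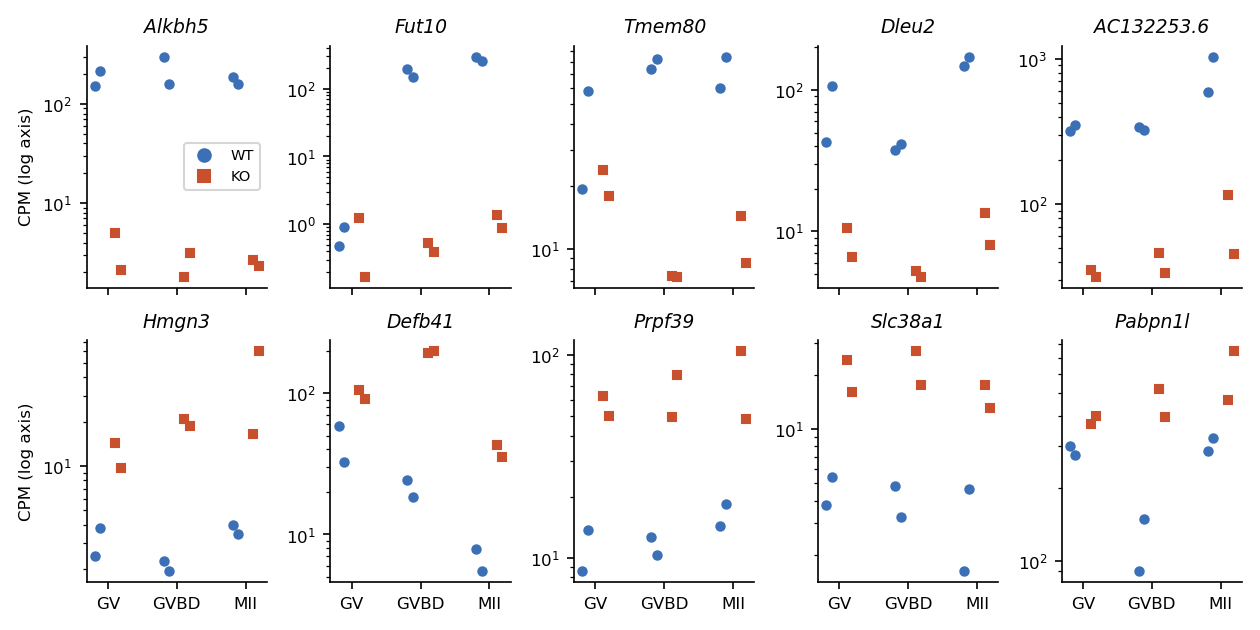
CPM (log axis) of 10 genes in the 12 libraries by stage, WT as circles and KO as squares. Dleu2, AC132253.6, Hmgn3, Prpf39 and Slc38a1 are apart at all 3 stages, Fut10 is apart at GVBD and MII with both genotypes low at GV, and the Pabpn1l levels of the genotypes lie closest at GV.

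Whether the genotype difference at GVBD exceeded that at GV was tested directly over the 8 libraries of these stages. Of 21371 genes, 2 passed (0.00936%), a pair of gene models described at the end of the text, and 1579 had an unadjusted p under 0.05. Genes whose counts parted most at GVBD did not pass. Fut10 came to −8.61 (adjusted p = 0.0677), Ctla2a to −6.29 and Tmsb4x to −4.03 (adjusted p = 0.0719 for both), Bcl2a1b, an anti-apoptotic BCL2 relative of white blood cells, to −6.07 (adjusted p = 0.0677), and Rpl7a to 3.11 (adjusted p = 0.118). A difference particular to meiotic resumption was therefore not shown for any of the 301 genes. On simulated counts this test recovered 14% of 4-fold and 82% of 16-fold differences.

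In the WT libraries the levels of both sets fell between GV and MII more than that of the median gene. The median change was −1.73 (log2) for the higher genes and −1.80 for the lower genes, beside −1.07 for all tested genes, and −0.87, −0.82 and −0.14 with TMM scaling. The lower set held the globins and other genes of blood, stroma and immune cells. Globin RNA stood at 12.3 and 5409 CPM in the WT GV libraries and 6.84 and 35.4 CPM in the WT MII libraries. For such genes, decline in the oocyte and less RNA of other cells cannot be told apart. By the same test Fut10, Ptges3, Gm49030 and Tnfrsf4 went the other way and rose in the WT libraries from GV to MII. Ptges3 went from 87 and 111 counts to 2758 and 424. By the study's methods polyadenylated mRNA was reverse transcribed, so changes in amount and in poly(A) tail cannot be told apart. Annotated features of the sets are given without a test. Chromosome 11, which holds Alkbh5, carried 7.44% of the higher genes, 10.6% of the lower genes and 6.73% of all tested genes. Long intergenic non-coding RNA genes made up 3.31%, 6.67% and 6.64%. The median transcript length was 2337 bases for higher genes, 2460 for lower genes and 2713 for all tested genes, GC content was 52.2%, 49.5% and 48.5%, and 77.7%, 85.0% and 74.4% were protein coding.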

How the data were processed

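The deposited values are raw counts per gene and ERCC sequence, which the authors made by trimming with Cutadapt 1.9, aligning with HISAT2 2.0.4 to GRCm38 joined to the ERCC sequences, and StringTie 1.3.4d (versions from the submitters' processing notes). The step giving whole-number counts and the use of strand were not found. The methods describe SMART-seq with ERCC RNA, whereas the labels describe a bulk preparation, and total counts exceed the uniquely mapped reads the study lists. Symbols matched 91.9% of 56691 genes. edgeR 4.0.16 (glmQLFit, glmQLFTest, R 4.3.3, legacy dispersion) was fitted to the 4 GVBD libraries after filterByExpr, with sizes set by summed ERCC counts or by TMM. Tests were two-sided with Benjamini-Hochberg adjustment, and genes were called at adjusted p under 0.05 and 2-fold. Scripts were tested on simulated data. The 12 genes with the largest shift each way that were called, abundant and not overlapping, all TMM calls, Alkbh5 and up to 4 members per list were named; others were named by role or afterwards. Of these, 1 gene and some results are not reported here. Members and the 62 lists were chosen with earlier results of these data known. Alternatives included DESeq2 1.42.0.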

Additional observations from a re-analysis of the deposited data

Results flagged for a closer look

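On simulated counts, the test of a change in genotype difference between GV and GVBD called 8 genes left unchanged. By this test, the genotype difference at GVBD differed from that at GV for 2 gene models. For 4930548H24Rik (chromosome 5, 31485740 to 31488476, GRCm38) it differed by 5.13 ± 0.57 on the log2 scale (adjusted p = 0.044). The gene had 1831 and 1540 counts in WT and 24 and 48 in KO at GV, and 2482 and 1840 against 1279 and 1936 at GVBD, so the genotypes parted before resumption and overlapped at GVBD. For Mir7035 (chromosome 5, 136105522 to 136105603) it differed by 8.74 ± 0.82 (adjusted p = 0.0177). It had 519 and 249 counts in WT and 83 and 129 in KO at GV, and 1 and 1 against 96 and 169 at GVBD, where it is near 0 in WT. The hairpin lies inside Rasa4 on the same strand, and its counts cannot be told apart from reads of that mRNA. Neither gene passed when all 12 libraries were fitted together.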

How the results depend on the processing

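With spike-in scaling the 301 genes became 16 with TMM and 19 with median-of-ratios scaling, 584 without a filter on low counts, 527 with at least 10 counts in every library, 686 with DESeq2, 5 (4 of the 73 named) in a model of all 12 libraries, and 165 when near 0 meant 50 counts or fewer. Among the added settings, chosen after seeing the data, a newer edgeR dispersion method gave 736 and a filter on spike-in scaled counts 226. Leaving out 1 library gave 4 to 548. All 301 were shared with the fits without a filter and with the newer dispersion, and 283 with DESeq2. With TMM scaling the 16 genes became 36 without a filter, 280 with at least 10 counts in every library, 1162 with DESeq2, 194 with all 12 libraries, 146 with the newer dispersion and 10 at the cut of 50, and 4 to 218 when 1 library was left out. The 2 genes whose genotype difference at GVBD differed from that at GV became 635 without a filter, 77 with at least 10 counts in every library, 239 with DESeq2, 0 with all 12 libraries (1026 at an unadjusted p under 0.05), 8 with the newer dispersion and 0 to 88 when 1 library was left out. Of 73 genes named and called here with spike-in scaling, none changed sign under these settings, and 67 kept the call with DESeq2, 15 with TMM, 4 without WT replicate 1 and 7 without WT replicate 2. Where 1 library remained in a group, it was assumed to vary like the other group. Ccnb1 changed sign with TMM (−0.27), median-of-ratios scaling (−0.26) and left-out libraries (−0.22 to 0.31), and Cdk1 likewise (−0.13, −0.13 and −0.084 to 0.37). The shared replicate numbers mark only a number, since 2 pairs cannot show pairing (correlation of same-numbered deviations 0.14 over 13605 genes). With the replicate block the counts were 129 (44 higher, 126 shared), 6 and 1. With 2 pools per genotype, simulated 2-fold changes were not recovered (0%) at this depth.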
